A study of Rattus norvegicus with 16 samples.

Results

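The genes described here encode secreted peptides of the hypothalamus: Sst (somatostatin), Ghrh (growth hormone-releasing hormone), Tac1 and Tac3 (tachykinins), Gnrh1 (gonadotropin-releasing hormone), Penk and Pdyn (opioid precursors), Vip (vasoactive intestinal peptide), Adcyap1 (the precursor of PACAP) and Nts (neurotensin). They were chosen by name as the probe sets that the array's annotation assigns to exactly 1 of these 10 genes, which gave 13 of the 31042 probe sets that are not array controls. The data are signal intensities from the hypothalamus of 16 male Wistar rats aged 7 to 8 weeks, with 1 Affymetrix array per rat and 4 rats per group. The groups were restraint together with inhalation of (R)-(-)-linalool for 2 h, restraint stress alone for 2 h, linalool inhalation alone for 2 h, and control rats with neither. Linalool is the floral-smelling monoterpene alcohol of lavender oil. Wistar rats are an outbred stock, and the labels name no allele, transgene or drug in any group besides these exposures. The layout allows the difference with restraint, the difference with linalool and the dependence of each on the other to be measured.

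Neuropeptides are made as long precursors, cut by convertases inside secretory granules and released to act on G protein-coupled receptors. In the hypothalamus, somatostatin from the periventricular nucleus holds back pituitary growth hormone, and growth hormone-releasing hormone from the arcuate nucleus drives it. Tac3 encodes neurokinin B, which arcuate neurons make together with dynorphin (from Pdyn) and kisspeptin to pace the release of gonadotropin-releasing hormone. Tac1 encodes substance P and neurokinin A, and Penk encodes the enkephalins. Vip marks light-receiving neurons of the suprachiasmatic clock, PACAP acts in stress circuits of the paraventricular nucleus, and neurotensin neurons of the lateral and preoptic areas act on feeding and temperature. The tissue is a bulk dissection, so that fewer cells of a type and less RNA per cell cannot be told apart.

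The promoters of several of these genes are textbook targets of factors activated by cyclic AMP, and 7 of the 10 genes had an entry in the RefSeq promoter table used here (rat build GRCr8, 250 bases before to 50 bases after the annotated start). Tac3, Penk and Gnrh1 had none. Sst is shown whole because its promoter is the classical example and because Sst is a gene called below. Capitals mark the full cyclic AMP response element, TGACGTCA, which lay at bases 3 to 10 after the annotated start (chr11:90461296-90461595, plus strand). The annotated start was taken as given and not checked against a measured one. A position after it thus does not place the element inside the transcript.

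Sst: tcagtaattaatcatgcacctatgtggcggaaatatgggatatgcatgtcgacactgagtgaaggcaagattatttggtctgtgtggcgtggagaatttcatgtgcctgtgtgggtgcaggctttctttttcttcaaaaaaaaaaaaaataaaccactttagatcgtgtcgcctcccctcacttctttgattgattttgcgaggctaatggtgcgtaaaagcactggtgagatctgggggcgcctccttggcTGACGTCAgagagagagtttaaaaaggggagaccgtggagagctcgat

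Stretches of 3 other promoters are shown because they hold the short form of that element, TGACG or its other strand CGTCA, in capitals. They are Vip (chr1:44470358-44470412, plus strand, short element from base -97), Tac1 (chr4:36645352-36645406, plus strand, from base -206) and Nts (chr7:39461030-39461125, minus strand, from base -171). The Nts stretch also holds an AP-1 element, TGAGTCA, from base -212.

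Vip: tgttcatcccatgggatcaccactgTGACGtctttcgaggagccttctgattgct
Tac1: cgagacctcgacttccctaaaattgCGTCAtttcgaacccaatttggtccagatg
Nts: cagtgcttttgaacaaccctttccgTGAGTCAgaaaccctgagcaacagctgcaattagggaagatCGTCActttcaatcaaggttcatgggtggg

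Both strands were searched for each motif, and every full element also contains the short element on each strand. Of 33469 promoters of the same 300-base window, 1.83% held the full element, 21.2% the short element and 4.63% the AP-1 element. Among the 7 peptide genes these were 1 (Sst), 4 (Sst, Vip, Tac1 and Nts) and 1 (Nts). These matches describe letters in a window and say nothing of binding in these rats.

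Of the 13 probe sets, 12 passed the filter on dim values, and each of the 10 genes kept at least 1. The filter asked for a mean log2 signal of at least 5.91. Just inside it lay the kept probe set of Gnrh1 (1387535_at, mean 6.26) and the dimmer probe set of Pdyn (1369882_at, mean 6.40), and well outside it lay the other probe set of Gnrh1 (1370417_at, mean 2.76). Pdyn (1383294_at and 1369882_at), Gnrh1 and Adcyap1 (1368892_at and 1394908_at) have a pair of probe sets each, and the brighter of each pair, named first, represents the gene below. The other genes were measured by 1367762_at (Sst), 1387217_a_at (Ghrh), 1369309_a_at (Tac1), 1387138_at (Tac3), 1367949_at (Penk), 1377146_at (Vip) and 1380967_at (Nts). Levels are log2(signal + 16) after quantile normalization, given as mean ± SD over 4 rats, and a level of one gene is not set against that of another, since probe sets differ in how well they bind. Differences are on the same log2 scale, with limma's standard error (SE). A call is a Benjamini-Hochberg adjusted p under 0.05 over 18625 kept probe sets.

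Control rat 3 stood apart before any comparison. Its summed signal of 7 pituitary marker genes was 269.5, against 2424 to 7117 in the other rats. Among these markers, Gh1 and Prl did not pass the filter on dim values. Gh1 was 5.62 in control rat 3, against 5.17 to 5.53 in the other control rats, and Prl was 4.07 to 4.27 in all rats. Being so dim, neither can show whether pituitary signal was kept in control rat 3. Cga and Tshb passed the filter and were far brighter in some rats. Over control rats, Cga ran from 6.88 to 12.27 and Tshb from 5.84 to 10.94. The sum of 5 thalamus marker genes in control rat 3 was 2742, against 915.8 to 2217. Its sum of 8 striatum marker genes was 2244, against 1464 to 2027. The pituitary sums ran from 2424 to 6137 in restraint-with-linalool rats, 4593 to 7117 in restraint rats, 2843 to 4415 in linalool rats and 269.5 to 6978 in control rats. Choroid plexus markers summed to 758 in restraint-with-linalool rat 4, against 203.7 to 363.2 in the other rats. Among them, Ttr was 9.23 in that rat, against 6.25 to 7.71 in the others. Folr1, another of them, ran from 6.39 to 6.69 in that group and from 5.74 to 6.82 in control rats. The sum of 11 hypothalamus marker genes was 16230 to 25430 over all rats, and none of the 4 groups lay apart from the others on that measure. Such a sum mostly follows its brightest genes, among them Pmch (12.42 to 13.09). The BioC hybridization spike-in read 788 to 891 on 3 arrays (restraint-with-linalool rat 2 and linalool rats 2 and 4) and 208 to 254 on the other 13. No label names a batch, and the calls described below are given with and without these arrays. Control rat 1 had the highest beta-actin 3′ to 5′ log2 ratio, a measure of RNA integrity, at 2.30 against 1.06 to 1.81 in the other rats.

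**Figure D1:**
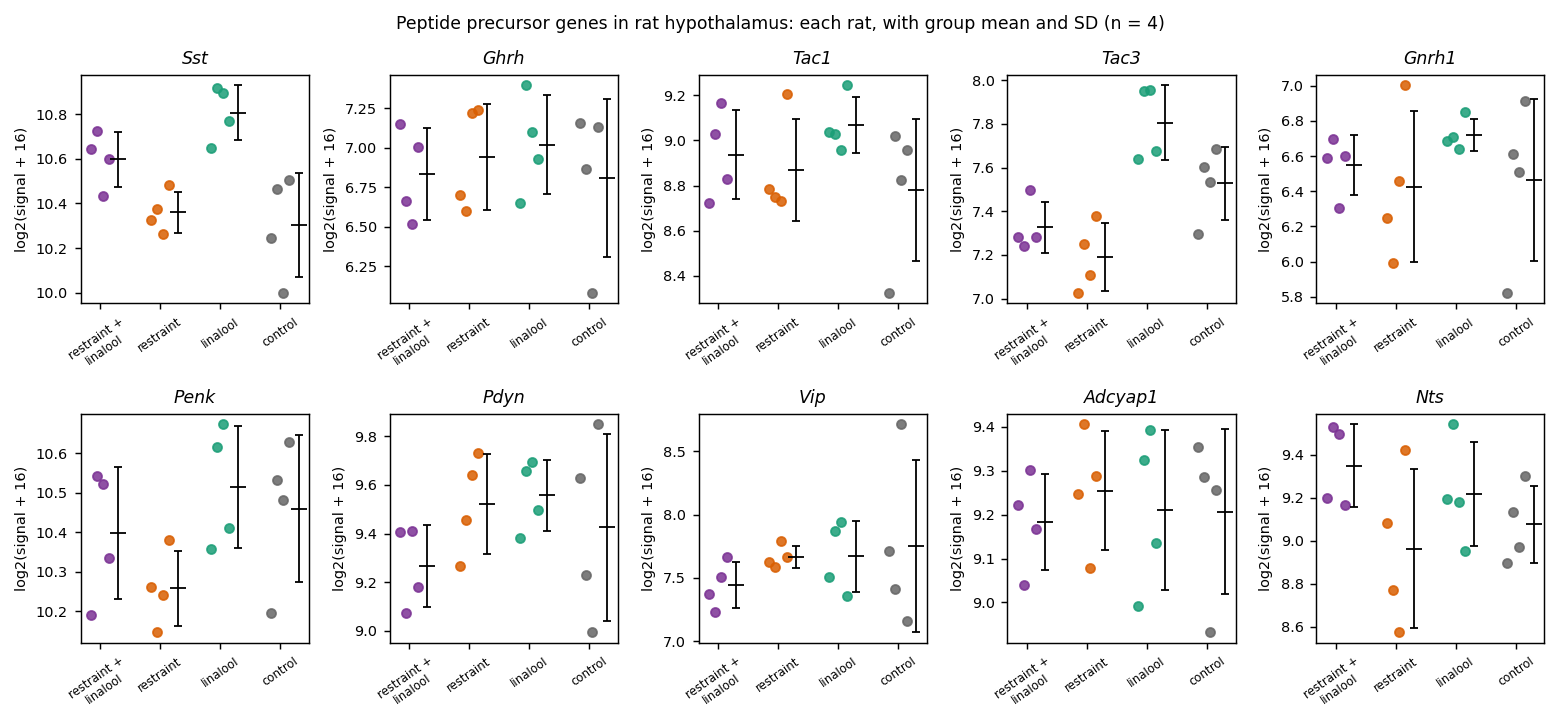
Level of each peptide gene in each rat (log2(signal + 16), vertical axis), by group on the horizontal axis, with the group mean and SD (n = 4) as bars beside the points. Tac3 sits lower in both restrained groups, Sst sits higher in both linalool groups, and control rat 3 has the highest Vip (8.71) of all rats.

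Restrained rats had a lower level of Tac3, the neurokinin B gene, than unrestrained rats. Tac3 measured 7.28, 7.24, 7.50 and 7.28 in restraint-with-linalool rats. It measured 7.03, 7.25, 7.11 and 7.38 in restraint rats. It measured 7.64, 7.95, 7.96 and 7.67 in linalool rats. Control rats had 7.30, 7.60, 7.54 and 7.68. Apart from control rat 1, every unrestrained rat lay above every restrained rat. Averaged over both odour conditions, Tac3 was 7.26 ± 0.15 in restrained rats and 7.67 ± 0.22 in unrestrained rats (SD, n = 8 each), a difference of -0.41 (SE 0.08, 95% interval -0.57 to -0.24, limma adjusted p = 0.00665) or 0.753 times the unrestrained signal plus 16. This was the only one of the 10 genes called for restraint, where 4.24% of all probe sets were called and 1.58% were called lower. The difference was -0.41 with the arrays of high BioC as a block (limma adjusted p = 0.00844) and -0.39 without those arrays (adjusted p = 0.0467). It was -0.41 without control rat 3 (adjusted p = 0.0137) and -0.40 when each rat's beta-actin ratio entered the fit (adjusted p = 0.00414). On the values as deposited, whose overall level differed from array to array, it was -0.18 and did not pass (adjusted p = 0.335), while the median of all probe sets was itself 0.21 higher in restrained rats, so that Tac3 relative to that median was -0.39.

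The Tac3 difference was below 0 in each odour condition. Restraint-with-linalool rats stood -0.48 (SE 0.11) from linalool rats (limma adjusted p = 0.0362), a call in a comparison where 1.69% of all probe sets were called and 0.569% were called lower. That call was lost when any of 5 rats was left out: without linalool rat 2 or 3 the difference was -0.43 each (adjusted p = 0.0836 and 0.129), and without restraint-with-linalool rats 1, 2 and 4 it was -0.46, -0.45 and -0.46 (adjusted p = 0.108, 0.118 and 0.0676). Without the arrays of high BioC it was -0.44 (adjusted p = 0.201). Restraint rats stood -0.34 (SE 0.11) from control rats, which did not pass (limma adjusted p = 0.192). No gene of the 10 was called in that comparison, where 0.897% of all probe sets were. The interaction for Tac3, the restraint difference under linalool minus that without it, was -0.14 (SE 0.15, 95% interval -0.47 to 0.19). In order of level the groups ran linalool (7.81 ± 0.17), control (7.53 ± 0.17), restraint with linalool (7.33 ± 0.12) and restraint (7.19 ± 0.15), and no pair of neighbours in that order passed the test.

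Tac1, the substance P gene and the other tachykinin, did not differ with restraint beyond the spread between rats (-0.02, SE 0.11, 95% interval -0.25 to 0.20). It averaged 8.94 ± 0.20 in restraint-with-linalool rats, 8.87 ± 0.23 in restraint rats, 9.07 ± 0.12 in linalool rats and 8.78 ± 0.31 in control rats. The lowest value was in control rat 1 (8.32) and the highest in linalool rat 4 (9.25). Linalool rats lay at 8.96 to 9.25, which overlapped the other groups. The linalool difference was 0.18 (SE 0.11, limma adjusted p = 0.456).

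Linalool inhalation was accompanied by a higher level of Sst, the somatostatin gene. Sst measured 10.64, 10.72, 10.43 and 10.60 in restraint-with-linalool rats. It measured 10.65, 10.92, 10.89 and 10.77 in linalool rats. Restraint rats had 10.33, 10.37, 10.27 and 10.48. Control rats had 10.25, 10.46, 10.0003 and 10.51. All 4 linalool rats lay above all 8 rats without linalool, and of the restraint-with-linalool rats only rat 3 lay within their range. Averaged over both restraint conditions, Sst was 10.70 ± 0.16 in linalool-inhaling rats and 10.33 ± 0.17 in rats without linalool (SD, n = 8 each), a difference of 0.37 (SE 0.08, 95% interval 0.21 to 0.53, limma adjusted p = 0.0417) or a ratio of 1.29. It was the only one of the 10 genes called for linalool, where 0.714% of all probe sets were called and 0.596% were called higher.

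The adjusted p of Sst lay close to the threshold, while the size of the difference moved little. Leaving out each rat in turn gave 0.32 to 0.40 with adjusted p from 0.0339 to 0.0986, and the call held in 5 of 16 such fits. It was lost without control rat 3 (0.32, adjusted p = 0.0557), without any single restraint rat, without linalool rats 2, 3 or 4, and without restraint-with-linalool rats 1, 2 or 4. All 3 arrays of high BioC were of linalool-inhaling rats. With them as a block the Sst difference was 0.33 (adjusted p = 0.215), and without them it was 0.33 (adjusted p = 0.295), where 1 and 0 probe sets on the whole array were called for linalool, against 133 in the fit without the block. On the values as deposited it was 0.32 (adjusted p = 0.995). Linalool alone against control gave 0.50 for Sst (SE 0.11, 95% interval 0.27 to 0.73, limma adjusted p = 0.282). In that comparison 0% of all probe sets were called, and 1837 had an unadjusted p under 0.05. Restraint with linalool against restraint gave 0.24 (SE 0.11, adjusted p = 0.377), with 0 of the 10 genes called against 0.65% of all probe sets. The interaction for Sst did not pass (-0.26, SE 0.15, 95% interval -0.59 to 0.06), and 0% of all probe sets were called for interaction, with 1493 at an unadjusted p under 0.05. In order of level the groups ran linalool (10.81 ± 0.12), restraint with linalool (10.60 ± 0.12), restraint (10.36 ± 0.09) and control (10.30 ± 0.23), and no pair of neighbours passed.

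Ghrh, the counterpart of somatostatin at the pituitary, showed no difference beyond its spread. It averaged 6.83 ± 0.29 in restraint-with-linalool rats, 6.94 ± 0.34 in restraint rats, 7.02 ± 0.31 in linalool rats and 6.81 ± 0.50 in control rats. The linalool difference was 0.05 (95% interval -0.30 to 0.40) and the restraint difference -0.03 (95% interval -0.38 to 0.32). Control rat 3 had the lowest value of all rats, 6.08, and without it the other 3 control rats averaged 7.05 ± 0.16, and the differences were -0.07 for linalool and -0.15 for restraint (limma adjusted p = 0.867 and 0.625). Control rat 3 also had the lowest Sst of all rats. Whether its low pituitary sum and its high thalamus and striatum sums had a part in these values was not tested.

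**Figure D2:**
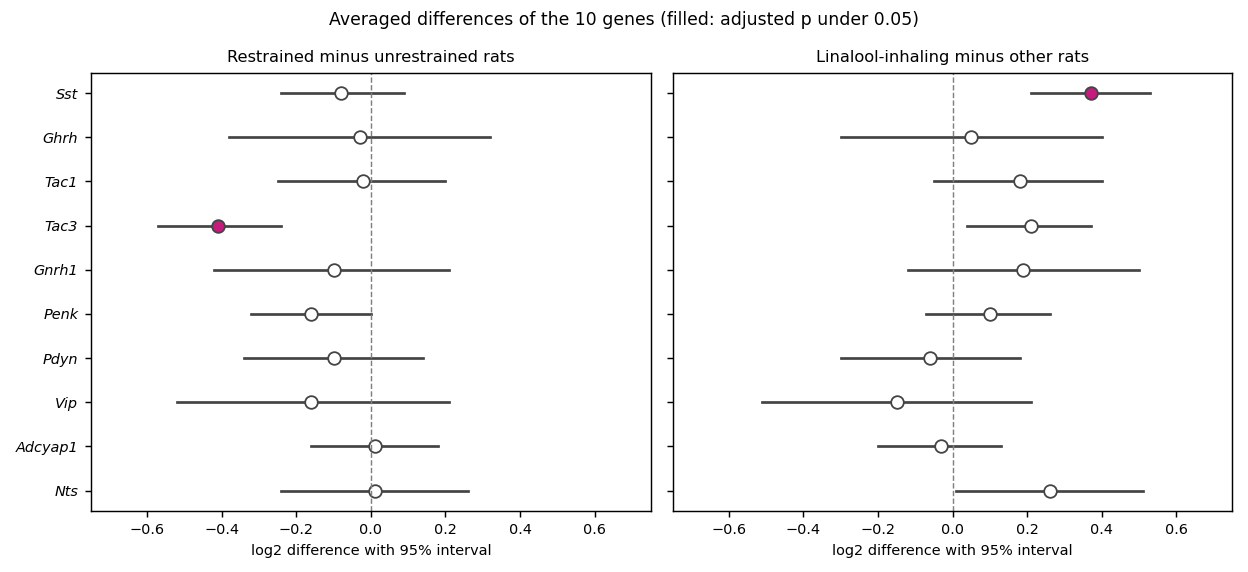
Log2 difference with its 95% interval for each of the 10 genes (vertical axis), for restrained minus unrestrained rats on the left and linalool-inhaling rats minus the others on the right. Tac3 on the left (-0.41) and Sst on the right (0.37) are filled because their adjusted p was under 0.05.

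Gnrh1, the gene of the peptide that drives pituitary gonadotropins and that neurokinin B neurons act upon, did not pass in any comparison. Its kept probe set averaged 6.55 ± 0.17 in restraint-with-linalool rats, 6.43 ± 0.43 in restraint rats, 6.72 ± 0.09 in linalool rats and 6.46 ± 0.46 in control rats. The 4 linalool rats lay close together at 6.64 to 6.85, while restraint rats ran from 5.99 to 7.00 and control rats from 5.82 to 6.91. The restraint difference was -0.10 (95% interval -0.42 to 0.21) and the linalool difference 0.19 (95% interval -0.12 to 0.50). The second probe set of Gnrh1 was among the dimmest on the array, at a deposited signal of 2.01 to 23.4, and was not among those kept.

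The opioid precursors did not pass either. Penk, the enkephalin gene, averaged 10.40 ± 0.17 in restraint-with-linalool rats, 10.26 ± 0.10 in restraint rats, 10.51 ± 0.15 in linalool rats and 10.46 ± 0.19 in control rats. Its restraint difference of -0.16 (SE 0.08, 95% interval -0.32 to 0.00, limma adjusted p = 0.28) was nearest to the threshold among the genes not called for restraint. Pdyn, the dynorphin gene, averaged 9.27 ± 0.17 in restraint-with-linalool rats, 9.52 ± 0.21 in restraint rats, 9.56 ± 0.14 in linalool rats and 9.43 ± 0.38 in control rats. Its largest pairwise difference, restraint with linalool minus linalool, was -0.29 (SE 0.16, limma adjusted p = 0.391). The dimmer probe set of Pdyn gave -0.41 for the same comparison (SE 0.24, adjusted p = 0.417).

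The pairs of probe sets for a gene followed each other loosely from rat to rat. After each group's mean was taken off, the Pdyn pair correlated at r = 0.04 (Spearman's rho 0.12, n = 16, permutation p = 0.959 and 0.746). That r was 0.48 without the 2 rats farthest from the median on the dimmer probe set. Control rat 1, the rat with the highest beta-actin ratio, was at 9.63 on the brighter probe set and lowest of all rats on the dimmer (5.75). The Gnrh1 pair correlated at r = 0.13 (rho -0.04, permutation p = 0.715 and 0.913), and the Adcyap1 pair at r = 0.48 (rho 0.32, permutation p = 0.1 and 0.277). Without the 2 rats farthest from the median on the brighter Adcyap1 probe set, r was 0.13. Over the 3 pairs, the lowest adjusted p was 0.301. For Pdyn the order of the rats thus differed with the probe set read. The second Gnrh1 probe set did not pass the filter on dim values, so its low correlation cannot decide this for Gnrh1.

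**Figure D3:**
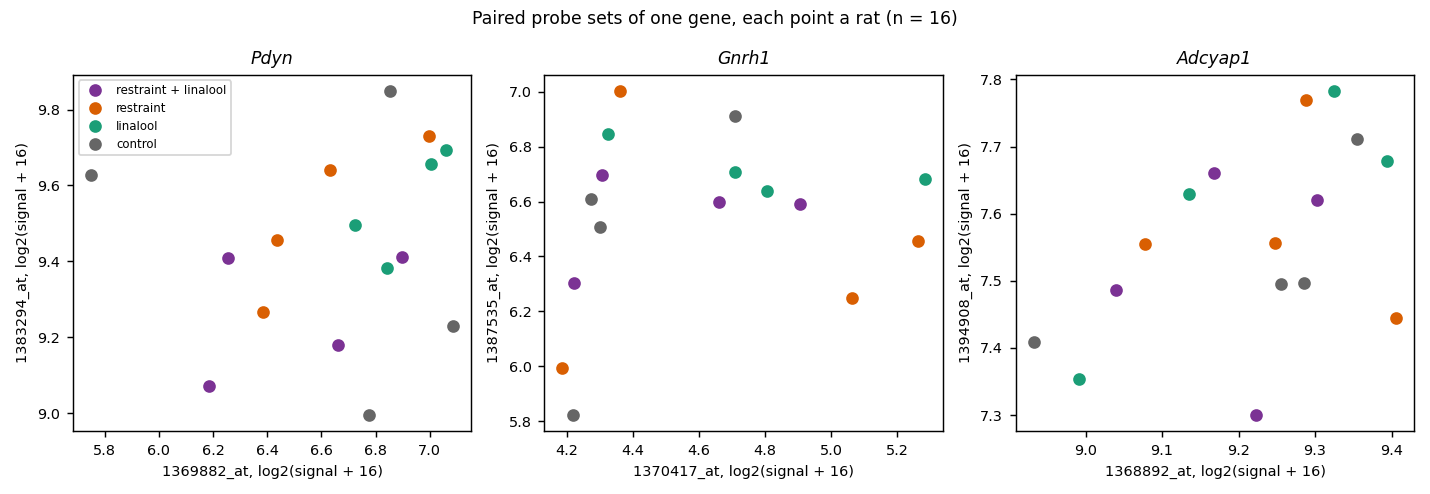
Level of a gene on its brighter probe set (vertical axis; for Adcyap1 the dimmer one is vertical) against its other probe set (horizontal axis), both as log2(signal + 16), with each point a rat coloured by group. The points scatter, and for Pdyn control rat 1 lies at the upper left (5.75 and 9.63).

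Nts, the neurotensin gene, was the third gene with an unadjusted p under 0.05 for linalool, after Sst and Tac3, but did not pass. Nts measured 9.20, 9.53, 9.50 and 9.17 in restraint-with-linalool rats. It measured 9.19, 9.54, 9.18 and 8.95 in linalool rats. Restraint rats had 9.08, 8.77, 8.58 and 9.42, and control rats had 8.90, 9.13, 8.97 and 9.30. The groups overlapped, and the widest spread was among restraint rats. The linalool difference was 0.26 (SE 0.12, 95% interval 0.01 to 0.51, limma adjusted p = 0.313), and restraint with linalool minus restraint was 0.39 (SE 0.17, adjusted p = 0.345). For Tac3 the linalool difference was 0.21 (SE 0.08, 95% interval 0.04 to 0.37, limma adjusted p = 0.229).

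Vip, the peptide gene of the clock nucleus, had its widest spread among control rats. It averaged 7.44 ± 0.19 in restraint-with-linalool rats, 7.67 ± 0.09 in restraint rats, 7.67 ± 0.28 in linalool rats and 7.75 ± 0.68 in control rats. Control rat 3 had 8.71, above all other rats, and the other 3 control rats averaged 7.43 ± 0.28. With that rat the restraint difference was -0.16 and the linalool difference -0.15; without it both were 0.01 (limma adjusted p = 0.989 and 0.98). Adcyap1 had the smallest range over the 16 rats among the 10 genes, 0.47, and averaged 9.18 ± 0.11 in restraint-with-linalool rats, 9.25 ± 0.14 in restraint rats, 9.21 ± 0.18 in linalool rats and 9.21 ± 0.19 in control rats. Its restraint difference was 0.01 (95% interval -0.16 to 0.18) and its linalool difference -0.03 (95% interval -0.20 to 0.13).

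Across the 10 genes, 2 differences were above 0 and 8 below for restraint, with a median of -0.086 beside -0.011 over all kept probe sets. For linalool, 7 were above 0 and 3 below, with a median of 0.137 beside -0.008. Restraint with linalool minus control gave 5 above and 5 below, and 0 of the 10 genes were called against 4.03% of all probe sets. Sst was the gene nearest to the threshold there, at 0.29 (SE 0.11, limma adjusted p = 0.147). Without control rat 3 it was 0.19 (adjusted p = 0.352), and Pdyn, at -0.30 (adjusted p = 0.333), was then nearer. Without control rats 1 and 3 together, an alternative chosen after seeing the data, Sst was 0.11. The comparisons share control and treated rats, so that their counts are not independent.

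**Figure D4:**
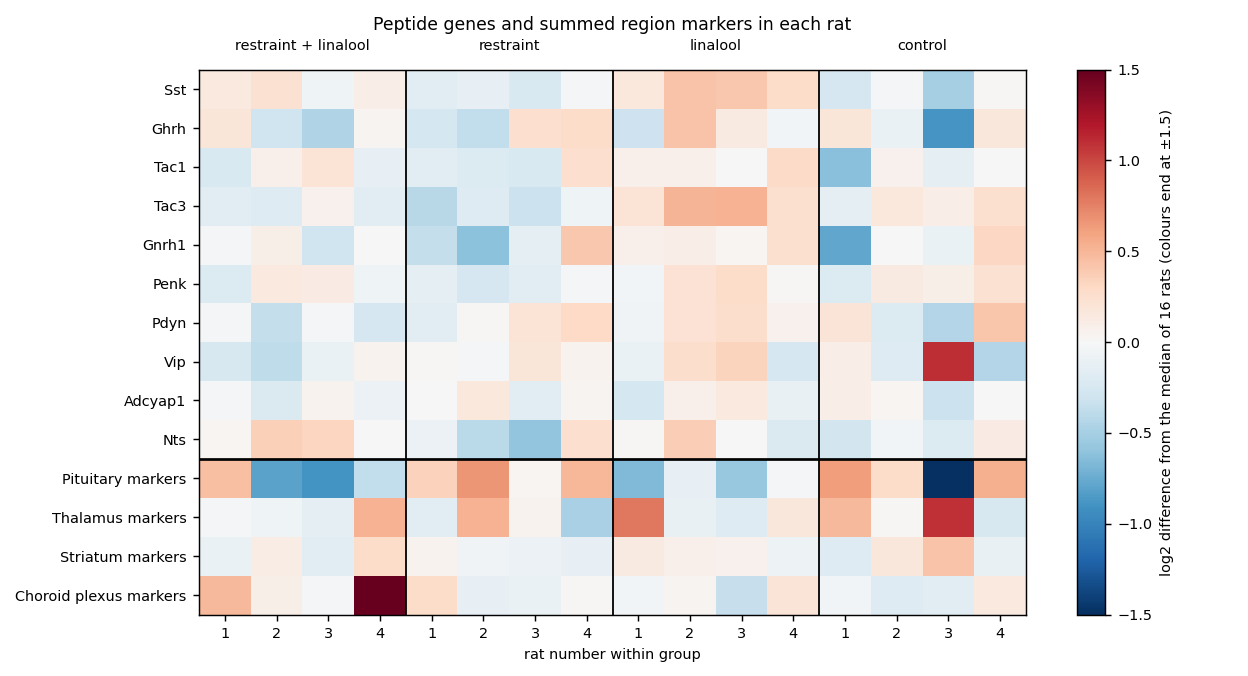
Difference of each rat from the median of all 16 rats, in log2 units as colour (red above, blue below), for the 10 peptide genes in the upper rows and the summed markers of 4 neighbouring tissues in the lower rows, with rats by group on the horizontal axis. Control rat 3 stands out by a low pituitary sum, high thalamus and striatum sums and high Vip. Restraint-with-linalool rat 4 stands out by a high choroid plexus sum.

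No pair of peptide genes passed the test for varying together from rat to rat. Among 45 pairs, after group means were taken off, 33 correlations were positive, with a median of 0.24, and 0 had an adjusted permutation p under 0.05 (11 had an unadjusted p under 0.05). The highest was between Pdyn and Ghrh (r = 0.75, rho 0.66, n = 16, permutation p = 0.00528 and 0.0176, adjusted p = 0.119 and 0.265). That r was 0.64 without the 2 rats farthest from the median on Pdyn and 0.76 in the 13 arrays of low BioC. Tac3 and Penk followed, at r = 0.74 and rho 0.70 (permutation p = 0.00806 and 0.00907, adjusted p = 0.121 and 0.204). Here r was 0.57 without the 2 rats farthest on Tac3 and 0.84 in the 13 arrays of low BioC. Rats far from the median on the other gene of a pair were kept. Of 10247 other named genes, those most like Tac3 over the 16 arrays, with differences between groups left in, were Dpy30, a subunit of histone methyltransferase complexes (Pearson r = 0.92), and Atp6v1g2, a subunit of the vacuolar proton pump (0.88). With group means taken off, these were 0.75 and 0.72. Those most like Sst were Fchsd1 and Caly, both 0.86 with group differences left in, and 0.90 and 0.70 with group means taken off. The values that follow also hold the group differences. Those most like Nts were Sod1, superoxide dismutase (0.82), and Med31, a Mediator subunit (0.79). The nearest gene to each of the others was Bex2 for Tac1 (0.83), Rab11b for Penk (0.80), Rnh1 for Pdyn (0.84), Ppm1l for Vip (0.81), Frzb for Ghrh (0.88), Mad2l2 for Gnrh1 (0.82) and Mrpl57 for Adcyap1 (0.81). These were the highest of many correlations and share the same arrays.

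None of the receptor genes bright enough to test was called. Of 20 receptor genes on the list, 11 were tested, and 0 were called in any of the 8 comparisons. These comparisons called 0% to 4.24% of all probe sets, and 0 of 11 is near those shares. Those tested were Sstr1, Sstr2 and Sstr3 for somatostatin, Tacr1 and Tacr3 for tachykinins, Oprk1 for dynorphin, Adcyap1r1 for PACAP, Ntsr1, Ntsr2 and Sort1 for neurotensin, and Oprl1, the receptor of nociceptin, which is not among the 10 peptides. The listed receptors of growth hormone-releasing hormone and gonadotropin-releasing hormone, Ghrhr and Gnrhr, the mu and delta opioid receptors, and Vipr1 and Vipr2 did not pass the filter. The median difference of the 11 tested receptor genes was 0.02 for restraint and -0.05 for linalool. Sstr2, a somatostatin receptor, averaged 7.41 ± 0.26 in restraint-with-linalool rats, 7.30 ± 0.14 in restraint rats, 7.24 ± 0.06 in linalool rats and 7.09 ± 0.20 in control rats, and its restraint difference of 0.19 did not pass (SE 0.09, limma adjusted p = 0.25). Sstr1, another somatostatin receptor, differed by -0.11 (SE 0.07, adjusted p = 0.485).

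Genes of peptide processing and breakdown were not called either. Of 15 genes of convertases, granule proteins and related enzymes, 14 were tested and 0 were called in any comparison. That is near the 0% to 4.24% of all probe sets called in each. The medians were -0.03 for restraint and 0.03 for linalool. Vgf, a granule protein gene, differed by 0.13 with restraint (SE 0.07, limma adjusted p = 0.342), and the convertase gene Furin by -0.19 (SE 0.10, adjusted p = 0.324). Of 11 peptidase genes, 7 were tested and 0 were called, again near the 0% to 4.24% of all probe sets. Ace, the angiotensin-converting enzyme gene, differed by -0.19 (SE 0.09, adjusted p = 0.246), and Nln, the neurolysin gene whose product cuts neurotensin, by -0.20 (SE 0.09, adjusted p = 0.246).

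Among transcription regulators of peptide genes, 11 of 21 were tested and 1 was called for restraint, where 4.24% of all probe sets were called. Crem, the cyclic AMP response element modulator, averaged 9.76 ± 0.35 in restraint-with-linalool rats, 9.27 ± 0.21 in restraint rats, 9.13 ± 0.10 in linalool rats and 8.88 ± 0.23 in control rats. Its restraint difference was 0.51 (SE 0.11, limma adjusted p = 0.0157), its linalool difference was 0.37 and did not pass (SE 0.11, adjusted p = 0.142), and restraint with linalool minus control was 0.88 (SE 0.16, adjusted p = 0.00625). Without the arrays of high BioC, the restraint difference was 0.51 and no longer passed (adjusted p = 0.0809), and restraint with linalool minus control was 0.86 (adjusted p = 0.0468). With those arrays as a block, both passed, at 0.52 and 0.87 (adjusted p = 0.0189 and 0.015). The gene makes activating and repressing forms, which were not told apart here. The list's median was 0.03 for restraint and 0.02 for linalool.

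Other neuropeptide genes gave no call. Of 28 such genes, 17 were tested and 0 were called in any comparison, near the 0% to 4.24% of all probe sets called. For linalool, 14 of the 17 differences were above 0, with a median of 0.08, beside -0.008 over all probe sets. Trh, the thyrotropin-releasing hormone gene, averaged 8.88 ± 0.26 in restraint-with-linalool rats, 9.10 ± 0.24 in linalool rats, 8.32 ± 0.26 in restraint rats and 8.67 ± 0.28 in control rats. Its linalool difference of 0.49 (SE 0.12, limma adjusted p = 0.0673) and its restraint difference of -0.29 (SE 0.12, adjusted p = 0.195) did not pass. Prlh, the prolactin-releasing peptide gene, differed by 0.18 with restraint (SE 0.13, adjusted p = 0.484).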

How the data were processed

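The authors deposited signal intensity per probe set on a linear scale. Per the submitters' processing notes, MAS5 was used, which combines perfect-match and mismatch probes into 1 signal. Its version and scaling target were not given in the sources used. The arrays were not at a common level, with trimmed means of 283 to 296 in restraint-with-linalool, 236 to 329 in restraint, 189 to 245 in linalool and 173 to 311 in control rats. Quantile normalization between arrays was part of the design. After 57 array control probe sets were left out, log2 values were quantile-normalized, transformed back, raised by 16 and taken as log2 again, so that changes of dim genes are understated and a shift shared by most transcripts cannot be seen. Probe sets at or above the 40th percentile of mean log2 value were kept (18625). Gene names came from the platform annotation, in which 20826 probe sets had 1 symbol, 436 several and 9780 none. A gene's brightest kept probe set represents it.

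A group-means model over 16 arrays was fitted with limma 3.58.1 in R 4.3.3 (lmFit, eBayes, two-sided, 12 residual and 3.99 prior degrees of freedom), with Benjamini-Hochberg adjustment over all kept probe sets of each of 8 comparisons. Each array is a separate rat, and precision is limited by the number of arrays. Correlations were tested with 100000 permutations within groups (Python 3.11.15, scipy 1.17.1). The fit was tested on simulated data. Alternatives were the values as deposited, trimmed-mean scaling, pseudocounts of 1 and 64, other filters, a 2-group fit, the replicate number or BioC level as a block, a beta-actin ratio covariate, and leaving out each rat. The members, lists and the rule for names (list genes called in any comparison, otherwise the 2 with the smallest restraint p; the 2 genes most like each member) were chosen with earlier results of these data known.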

Additional observations from a re-analysis of the deposited data

Results flagged for a closer look

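Of 52 combinations of group and probe set, 3 held a rat far from the other 3 of its group by Dixon's test, and chance gives about 1 in 20. Tac1 measured 9.21 in restraint rat 4, against 8.73 to 8.79 in the other restraint rats. Tac3 measured 7.50 in restraint-with-linalool rat 3, against 7.24 to 7.28 in the others of that group; without that rat the difference from linalool rats was -0.54 (limma adjusted p = 0.0368). The dim Gnrh1 probe set that did not pass the filter (1370417_at) measured 4.71 in control rat 4, against 4.22 to 4.30 in the other control rats.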

How the results depend on the processing

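The lower Tac3 with restraint (main difference -0.41) was called under every alternative tried except the values as deposited, where it was -0.18 (limma adjusted p = 0.335) and the count of the 10 genes called was 0. On those values the median of all probe sets itself moved by 0.21 for restraint, and Tac3 relative to it was -0.39. Leaving out each rat gave -0.45 to -0.38 and a count of 1 to 1. Penk with restraint turned to 0.06 on the values as deposited (-0.15 relative to the shift). The count for restraint with linalool minus linalool was 0 with the values as deposited (Tac3 -0.13, -0.45 relative to a shift of 0.32), with no filter (adjusted p = 0.0776), with a 20th percentile filter (0.0568), with only the 2 groups (0.0529) and in the arrays of low BioC, and 0 to 1 on leaving out a rat. The count for linalool was 0 with the values as deposited (Sst 0.32, adjusted p = 0.995), with no filter (0.0927), with a 20th percentile filter (0.0677), with the BioC block, in the arrays of low BioC, and without control rats 1 and 3 together, an alternative chosen after seeing the data (0.28, adjusted p = 0.0646), and 0 to 1 on leaving out a rat. The less strict filters test more probe sets; otherwise the cause was not tested. In the other 5 comparisons the count was 0 under all alternatives tried. Replicate numbers did not pair the rats: correlations of deviations between same-numbered arrays ran from -0.16 to 0.23, and 5 of 16 arrays correlated best with their own number. With the replicate block, Tac3 with restraint was -0.41 (adjusted p = 0.00646) and Sst with linalool 0.37 (adjusted p = 0.0386), and no call among the 10 genes changed.

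Counts over all probe sets depended on single rats and on settings. Leaving out each rat gave 489 to 1002 calls for restraint (790 with all rats), 39 to 358 for linalool (133), 70 to 203 for restraint minus control (167), 113 to 366 for restraint with linalool minus linalool (315), 29 to 181 for restraint with linalool minus restraint (121) and 263 to 1045 for restraint with linalool minus control (751). Over the other settings the lowest and highest counts were 457 and 1040, 0 and 334, 49 and 258, 77 and 1111, 0 and 389, and 203 and 1066 in the same order, and 0 and 14 for the interaction. On the values as deposited, 98.2% of the calls for restraint were higher, against 62.7% after quantile normalization. The same shares were 94.3% and 61.1% for restraint with linalool minus control, 99.4% and 66.3% for restraint with linalool minus linalool, and 84.9% and 70.1% for restraint minus control.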

Other observations

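Some markers of glia differed with restraint. P2ry12 and Cx3cr1, receptor genes of microglia, were called lower, as 2 of 5 microglial markers tested. For restraint, 1.58% of all probe sets were called lower. The other markers were not called: Csf1r went the other way (0.22, SE 0.09, limma adjusted p = 0.187), and Aif1 and Itgam gave -0.19 and -0.09. Restraint with linalool minus control gave -0.99 for P2ry12 (SE 0.18, limma adjusted p = 0.00585), and the averaged restraint difference of Cx3cr1 was -0.49 (SE 0.09, adjusted p = 0.006). Without the arrays of high BioC these were -0.88 (adjusted p = 0.0464) and -0.44, which did not pass (adjusted p = 0.065). The summed signal of 6 microglial markers was 1212 to 1457 in restraint-with-linalool rats, 1152 to 1414 in restraint rats, 1347 to 1738 in linalool rats and 1510 to 1782 in control rats. Gjb6, a connexin gene of astrocytes, differed by 0.29 (SE 0.06, adjusted p = 0.00834), the only call among 6 astrocyte markers, and by 0.30 without those arrays (adjusted p = 0.0466). For restraint, 2.66% of all probe sets were called higher. The part of these glial markers in the lower Tac3 of restrained rats was not tested. Gad2, a gene of GABA synthesis in inhibitory neurons, was higher in restraint-with-linalool than in restraint rats by 0.77 (SE 0.14, adjusted p = 0.0197), in a comparison where 0.65% of all probe sets were called. It was 1 of 6 markers of inhibitory neurons, of which 4 differed upward and the others downward, and it did not pass without the arrays of high BioC (0.69, adjusted p = 0.114), where 0 probe sets on the whole array were called. Cnp, an oligodendrocyte gene, stood -0.43 from control rats with restraint and linalool together (SE 0.11, adjusted p = 0.0438), and did not pass with those arrays as a block (-0.37, adjusted p = 0.0736), without them (-0.34, adjusted p = 0.168) or without control rat 3 (-0.44, adjusted p = 0.0856). It was 1 of 5 oligodendrocyte markers tested, and the only one called in that comparison, where 1.57% of all probe sets were called lower. Also tested were 8 hypothalamus, 6 striatum, 3 suprachiasmatic, 3 pituitary, 4 thalamus and 2 choroid plexus markers. For restraint and for linalool 0 of these were called, beside 4.24% and 0.714% of all probe sets. For linalool, 7 of the 8 hypothalamus markers differed upward, with a median of 0.17 beside -0.008 over all probe sets. All of these markers except Six6 are also among the other neuropeptide genes described above. The 2 tallies for linalool are thus largely of the same genes.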
